A study of Rattus norvegicus with 10 samples.

Results

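The genes described here are the collagens, the matrix metalloproteinases (Mmp), their tissue inhibitors (Timp) and the lysyl oxidases measured in rat liver. They were chosen by a rule on gene symbols: Col, a number and the letter a, or Mmp or Timp and a number, or Lox. This choice was made with earlier results of these data known. The rule gave 66 genes of 14217, from 96 probe sets, with the probe set of the highest mean over the 10 arrays standing for each gene. The 66 were 41 collagens, 17 Mmp genes, 4 Timp genes and 4 lysyl oxidases. Read strictly, with 1 digit in a collagen's number, the rule gave 48 genes, and the other 18 were collagens with a number of 2 digits.

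Liver RNA came from 10 Harlan Sprague Dawley rats, 5 controls given 0 ppm and 5 given 2-hydroxy-4-methoxybenzophenone (HMB, the sunscreen filter oxybenzone) at 10000 ppm in NTP-2000 feed for 13 weeks. Sex, age and genotype are not given in the sources used here, and each animal was measured on its own Affymetrix rat array. The animal numbered HMB 1 carries an HMB title and chemical label but a dose label of 0 ppm, and it was kept with the HMB group. Rats were housed 5 per cage, so cage and diet cannot be told apart if each group of 5 filled 1 cage.

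Collagens are secreted as triple helices and built into fibrils, networks and basement membranes outside the cell. Lysyl oxidases cross-link collagen and elastin, Mmp enzymes cleave matrix proteins, and Timp proteins bind and inhibit Mmp enzymes. In liver, stellate cells and portal fibroblasts are the main source of fibrillar collagen, and stellate cells that become myofibroblasts lay down the scar of fibrosis.

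Stretches before the start sites are shown for the collagens on which the results turn, as far as the RefSeq table of assembly GRCr8 held them. It held 49 of the 66 genes. Col6a3, which fell, starts on the minus strand, and its 250 bases before the start lie at chr9:98886959-98887208. Col15a1, which rose, starts on the plus strand, and its 250 bases lie at chr5:66297296-66297545. The capitals mark CAGAC or its reverse complement GTCTG, a short element that SMAD proteins of the TGF-beta pathway are known to bind.
Col6a3: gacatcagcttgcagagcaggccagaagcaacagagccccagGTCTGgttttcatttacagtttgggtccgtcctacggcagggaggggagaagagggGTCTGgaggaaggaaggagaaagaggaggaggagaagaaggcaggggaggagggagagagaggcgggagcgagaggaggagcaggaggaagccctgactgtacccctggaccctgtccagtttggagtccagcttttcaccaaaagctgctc
Col15a1: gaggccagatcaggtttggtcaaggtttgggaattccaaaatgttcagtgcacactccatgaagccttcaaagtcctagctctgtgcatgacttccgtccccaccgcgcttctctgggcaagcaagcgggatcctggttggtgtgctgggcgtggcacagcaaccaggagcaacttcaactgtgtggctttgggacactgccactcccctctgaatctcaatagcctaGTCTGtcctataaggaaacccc
The Col6a3 stretch held 2 such matches, 208 and 152 bases before the start, and the Col15a1 stretch held 1, at 22 bases. Searched on both strands, CAGAC was present in 42.9% of all 33469 promoters of that length and in 14 of the 49 matched genes (28.6%). The chains Col4a1 and Col4a2 start back to back, and the 76 bases between their starts lie at chr16:84885521-84885596, given on the plus strand with a GC box (GGGCGG, here as CCGCCC) in capitals.
Col4a1 and Col4a2: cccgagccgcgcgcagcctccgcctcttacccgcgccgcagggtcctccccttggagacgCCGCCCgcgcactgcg
The shared stretch held 1 GC box and 78.9% G or C. A GC box on either strand was present in 26 of the 49 matched genes (53.1%) and in 30.5% of all promoters. CCAAT (reverse ATTGG) was in 12 of the 49 (24.5%) against 34.0% of all, TATAAA (reverse TTTATA) in 10 (20.4%) against 12.9%, and TGANTCA, which reads alike on both strands, in 6 (12.2%) against 6.34%. The members were counted with 1 promoter per gene. The shares of all promoters were not limited to 1 per gene or to the genes measured here, so the sets compared are unlike. These matches describe letters and were set against no measurement of binding.

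Few matrix genes differed past the threshold. Of the 66, Col15a1 was higher and Col6a3 and Col12a1 were lower in HMB at an adjusted p under 0.05 (limma with Benjamini-Hochberg adjustment over all 14217 genes), and 63 did not pass. That is 3 of 66 (4.55%), and over all genes 1.72% were called, 0.76% as higher and 0.957% as lower. Under the 1-digit reading of the rule it was 1 of 48 (2.08%), Col6a3. The other 2 calls were among the 18 collagens with a number of 2 digits (11.1%). At an unadjusted limma p under 0.05 there were 17 members (25.8%), close to the 24.9% of all genes. The values of the 5 HMB livers did not overlap with those of the 5 controls for 6 members (9.09%), 1 higher and 5 lower, against 6.12% of all genes. All values are log2 signals, a difference is HMB minus control, and each is from bulk liver, where fewer cells of a type and less RNA per cell cannot be told apart.

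The 66 differences ranged from -0.63 to 0.46, with 41 above 0, 25 below 0 and a median of 0.05, against a median of -0.02 over all genes. The sign followed the brightness of the probe set, and it did so in all genes too. Among genes with a mean signal under 3.64, the median difference was 0.08 over 26 members and 0.11 over all genes. From 3.64 to 5.92 it was 0.01 over 25 members and 0.03 over all genes. Between 5.92 and 7.79 it was -0.15 over 10 members and -0.12 over all genes, and above that 0.01 over 5 members and -0.07 over all genes. The standard deviation of an array's log2 values moved with the groups, at 2.43 to 2.50 in controls and 2.38 to 2.43 in HMB with no overlap, and its part in these differences was not tested. With the arrays quantile normalized again, the member median was 0.02 and that of all genes 0.02.

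**Figure D1:**
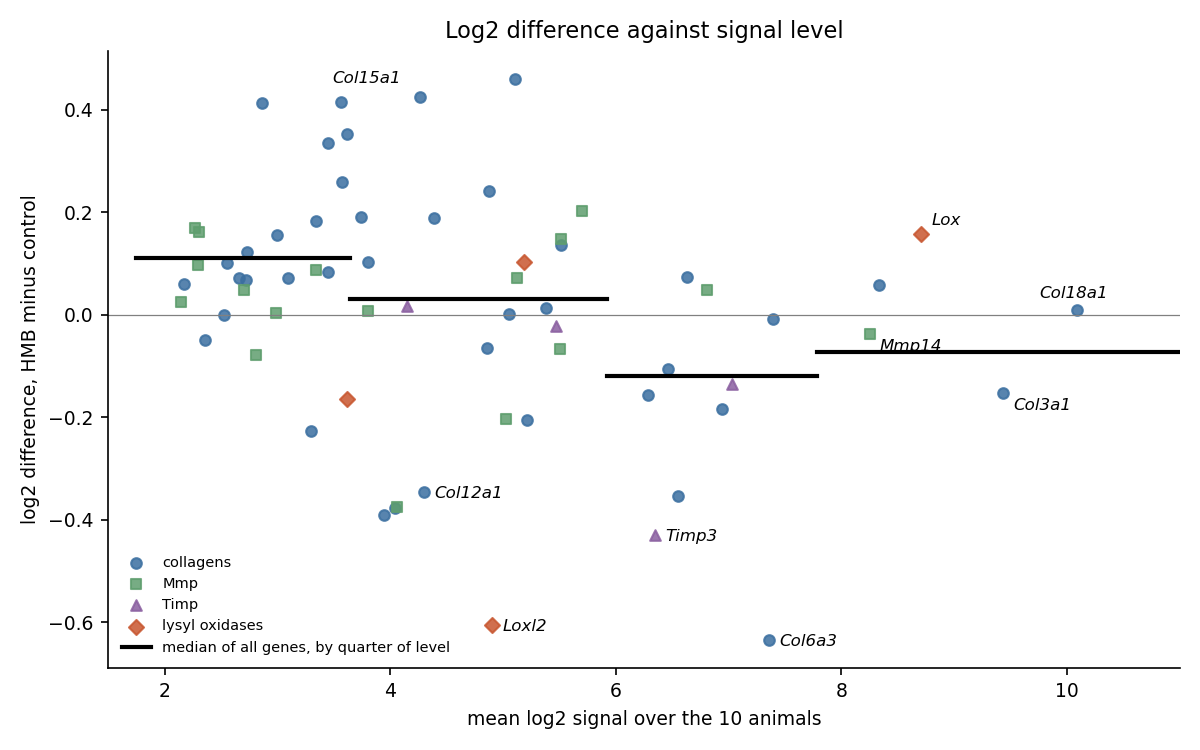
Log2 difference, HMB minus control (vertical), against mean log2 signal over the 10 animals (horizontal), for the 66 collagens, Mmp, Timp and lysyl oxidase genes. Black bars are the medians of all 14217 genes in 4 bands of signal. Members lie on both sides of 0, with Col6a3 the lowest at -0.63.

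Col6a3, the long chain of the microfibrillar type VI collagen, fell. The control livers 1 to 5 read 7.86, 8.06, 7.50, 7.72 and 7.24. The HMB livers 1 to 5 read 6.98, 6.92, 7.03, 7.20 and 7.09. All 5 HMB values lay below the lowest control, and the controls were the more spread group (SD 0.32 against 0.11). The difference was -0.63 ± 0.13 (SE, n = 5 and 5), a signal of 0.644 times the control level, with an adjusted p of 0.0425 by limma. A much dimmer probe set of the gene, at a mean of 3.32, differed by 0.18. The direction held under all 25 alternatives and the call under 8, with adjusted p from 0.0336 to 0.299. Leaving out animals could not turn the direction, because the groups did not overlap. The call ended when any 1 animal other than control 1 was left out, and when HMB 1 was counted as a control (-0.50, adjusted p 0.124).

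The 4 other type VI chains did not pass the test, and the 5 had a median of -0.11. Col6a1 and Col6a2 code for the short chains that assemble with Col6a3. Col6a1 read 6.38, 6.66, 6.33, 6.88 and 6.33 in controls and 6.21, 6.35, 6.54, 6.21 and 6.74 in HMB. The groups overlapped, and the difference was -0.11 ± 0.13 (adjusted p 0.640, 95% interval -0.40 to 0.19). Col6a2 read 3.68, 3.84, 3.75, 3.95 and 3.53 in controls and 4.00, 3.74, 3.64, 4.01 and 3.88 in HMB, a difference of 0.10 ± 0.10 (adjusted p 0.532). Col6a6, an alternative long chain, read 4.28, 4.04, 3.99, 4.54 and 4.28 in controls. Its HMB values of 3.91, 3.82, 3.98, 3.79 and 3.75 all lay below those, with HMB 3 just under control 3. Its difference was -0.38 ± 0.10 with an adjusted p of 0.0733, and that of Col6a5, a further long chain, was 0.18 (adjusted p 0.354). Differences between chains were not tested against each other.

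Col12a1, a fibril-associated collagen that sits on the surface of type I fibrils, fell. Controls read 4.37, 4.57, 4.43, 4.62 and 4.36, and HMB livers 4.21, 4.00, 4.20, 4.11 and 4.12. Every HMB value lay below every control, and both groups were tight (SD 0.12 and 0.09). The difference was -0.35 ± 0.08, or 0.787 times the control level, with an adjusted p of 0.0472 by limma. Its other probe sets, at means of 2.77 and 2.72, differed by 0.21 and 0.19, so the sign turns if the most variable probe set stands for the gene (0.21, adjusted p 0.264). The call held under 7 of 24 alternatives, with adjusted p from 0.0307 to 0.316, and it ended when any 1 animal other than control 1 or HMB 1 was left out.

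Of the 9 fibril-associated collagens, 7 were above 0, only Col12a1 passed, and the median was 0.10. Col16a1 read 5.16, 4.94, 4.57, 4.89 and 4.81 in controls and 5.18, 5.16, 5.14, 5.49 and 5.71 in HMB. Control 1 reached into the HMB values, and the difference was 0.46 ± 0.13 (adjusted p 0.0816). Col9a2, a chain of the type IX collagen of cartilage, read 4.25, 3.87, 4.35, 3.94 and 3.86 in controls. Its HMB values were 4.27, 4.30, 4.64, 4.72 and 4.45, and the difference was 0.42 ± 0.12 (adjusted p 0.0838). Col14a1, a fibril-associated collagen of mean signal 8.33, read 8.38, 8.33, 8.14, 8.67 and 7.98 in controls and 8.35, 8.21, 8.39, 8.24 and 8.61 in HMB. It overlapped widely, with a difference of 0.06 ± 0.12 (adjusted p 0.799). Col9a1, Col9a3, Col19a1, Col20a1 and Col22a1 had differences from -0.00 to 0.24 and adjusted p of 0.172 or more.

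Col15a1, a collagen of vascular basement membranes, rose. Controls read 3.48, 3.44, 3.12, 3.38 and 3.33, and HMB livers 3.54, 3.80, 3.95, 3.77 and 3.77. The groups did not overlap, but HMB 1 stood only just above control 1. The difference was 0.42 ± 0.09, or 1.33 times the control level, with an adjusted p of 0.0470 by limma. Its probe set lies in the dimmest band, where 31 of all 3555 genes were called higher and 1 lower, and a still dimmer probe set of the gene differed by -0.05. The call held under 6 of 23 alternatives, with adjusted p from 0.0287 to 0.396. It ended when any 1 animal other than control 1 or HMB 1 was left out, and with HMB 1 counted as a control (0.44, adjusted p 0.0541).

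**Figure D2:**
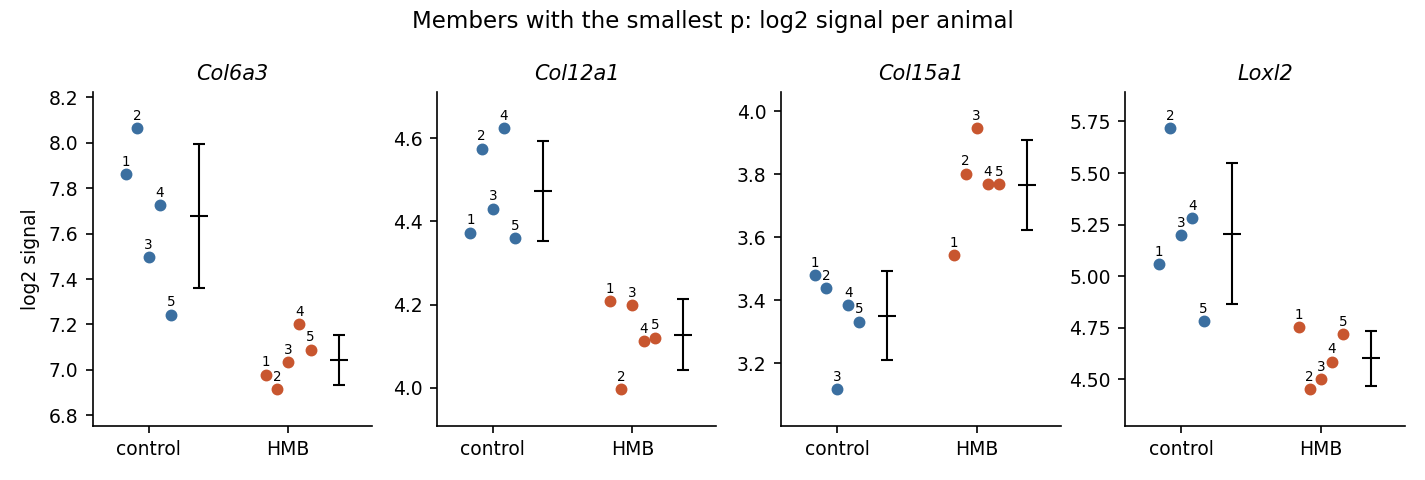
Log2 signal (vertical) of Col6a3, Col12a1, Col15a1 and Loxl2 in each of the 5 control and 5 HMB livers, numbered by animal. The bars give the mean and SD of each group, and no HMB value overlaps a control value in any panel.

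The 6 other basement membrane collagens did not pass, and the 7 had a median of 0.01. Col4a1 and Col4a2 make the commonest type IV network and share the start region shown above. Col4a1 read 6.32, 6.46, 6.28, 6.81 and 5.94 in controls and 6.27, 6.24, 6.20, 5.85 and 6.48 in HMB. Col4a2 read 5.44, 5.38, 5.38, 5.59 and 5.44 in controls and 5.35, 5.34, 5.85, 5.61 and 5.77 in HMB. Both overlapped, at -0.16 ± 0.15 (adjusted p 0.532) and 0.14 ± 0.11 (adjusted p 0.435), and the other probe set of Col4a1 gave -0.36 (0.194 adjusted over all probe sets). With group means removed, the 2 correlated at Pearson's r of 0.203 and Spearman's rho of 0.05 over the 10 animals (adjusted permutation p 0.692 and 0.891 over 6 pairs computed), and r was 0.05 without the 2 animals farthest from the median of Col4a1. Col18a1, whose protein is cut to release endostatin, had 9.99, 10.08, 10.10, 10.13 and 10.12 in controls and 10.20, 10.14, 9.78, 10.14 and 10.21 in HMB. HMB 3 was low, the other 4 HMB livers were above all controls, and the difference was 0.01 ± 0.09 (adjusted p 0.959). Col4a6 was at 0.35 (adjusted p 0.122), Col4a4 at -0.05 and Col4a5 at -0.01.

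No fibrillar collagen passed (1.72% of all genes did), and the median was 0.07. Of the 11, 3 had an unadjusted limma p under 0.05 (24.9% of all genes). Col1a1 and Col1a2, the chains of type I collagen, are the usual transcripts read for liver fibrosis. Col1a1 read 4.73, 4.97, 4.64, 4.97 and 5.13 in controls and 4.89, 4.52, 5.10, 4.61 and 4.99 in HMB. Col1a2 read 6.74, 7.44, 6.77, 7.62 and 6.60 in controls and 6.76, 6.66, 6.82, 6.61 and 7.40 in HMB. The groups overlapped for both, although 2 HMB livers lay below the lowest control for Col1a1. The differences were -0.07 ± 0.13 (adjusted p 0.777, 95% interval -0.35 to 0.22) and -0.18 ± 0.21 (adjusted p 0.605, interval -0.64 to 0.28). The other probe set of each gene gave 0.06 for Col1a1 and, at a mean signal of 6.30, -0.43 for Col1a2 (unadjusted p 0.0318, 0.169 adjusted over all probe sets). Col3a1, the chain of type III collagen, read 9.44, 9.71, 9.29, 10.02 and 9.10 in controls and 9.24, 9.25, 9.57, 9.08 and 9.66 in HMB. It too overlapped, at -0.15 ± 0.17 (adjusted p 0.589, interval -0.52 to 0.22). These intervals, which are not adjusted for the number of genes, include changes of either sign.

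Type V chains set the width of fibrils. Col5a2 read 6.58, 6.77, 6.77, 7.16 and 6.38 in controls and 6.22, 6.38, 6.32, 6.10 and 6.86 in HMB. HMB 5 lay among the controls, HMB 2 just above the lowest of them and the other 3 below all, and the difference was -0.35 ± 0.16 (adjusted p 0.194), as in the gene's other probe set (-0.35). Col5a1 read 6.61, 6.71, 6.55, 6.76 and 6.36 in controls and 6.68, 6.41, 6.87, 6.65 and 6.75 in HMB, a difference of 0.07 ± 0.10 (adjusted p 0.667). Col5a3 was dim, at 2.94, 2.40, 2.84, 2.48 and 2.62 in controls and 2.74, 3.07, 3.08, 3.30 and 3.17 in HMB. Only HMB 1 overlapped, and the difference was 0.41 ± 0.13 (adjusted p 0.0888). The remaining fibrillar chains, Col2a1, Col11a1, Col11a2, Col24a1 and Col27a1, had differences from 0.01 to 0.19 and adjusted p of 0.189 or more.

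**Figure D3:**
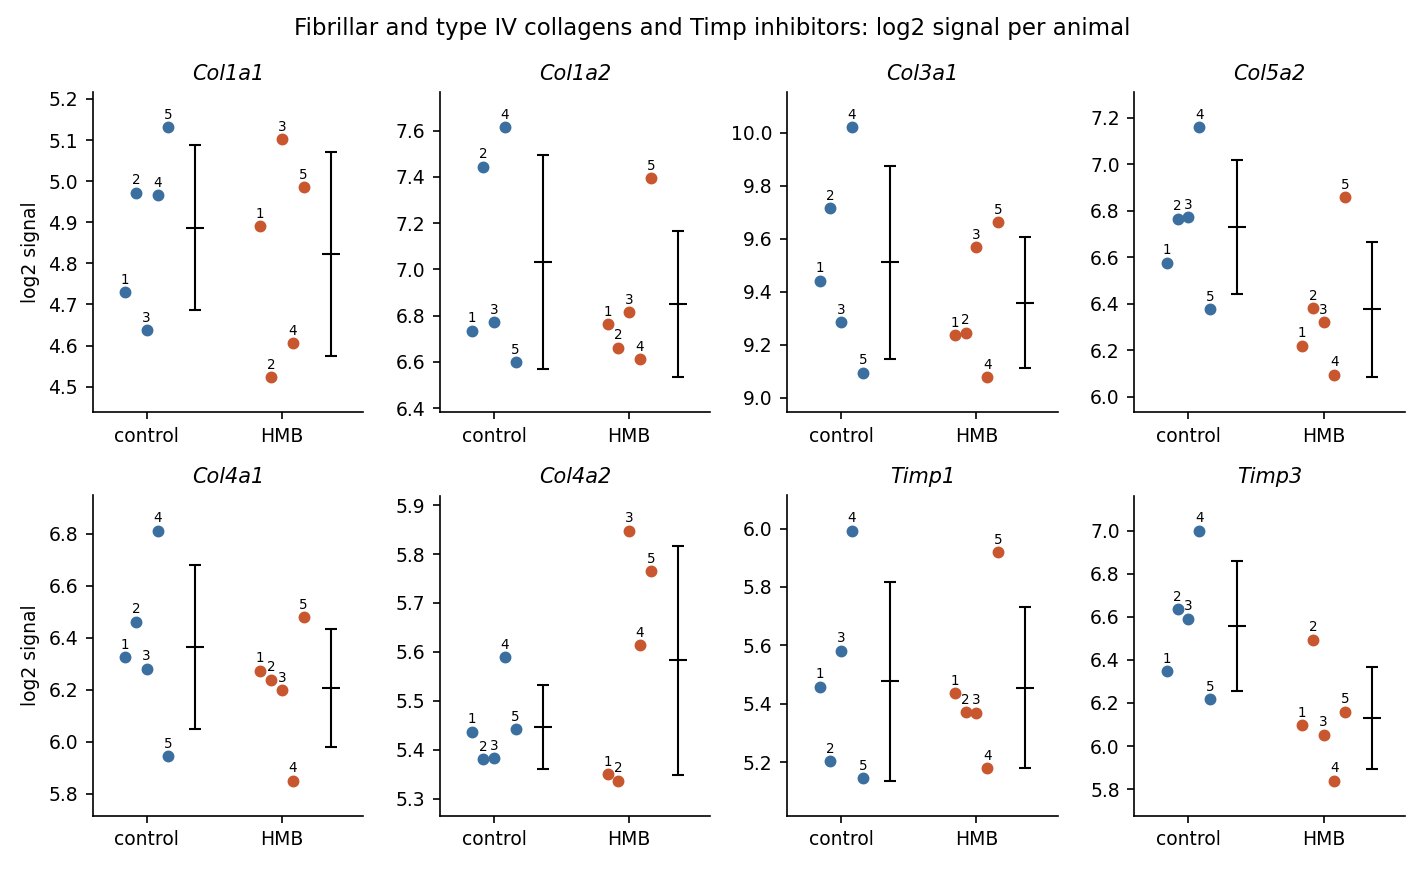
Log2 signal (vertical) of Col1a1, Col1a2, Col3a1, Col5a2, Col4a1, Col4a2, Timp1 and Timp3 in each of the 5 control and 5 HMB livers. Bars give the mean and SD of each group. Col1a1, Col1a2, Col3a1 and Timp1 are read in liver as transcripts of fibrosis. In each panel the groups overlap. For the probe sets plotted, the largest differences in size are -0.43 for Timp3 and -0.35 for Col5a2.

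The collagens of other kinds gave no call among 9 genes (1.72% of all genes were called), and the median was 0.06. Of the 9, 1 had an unadjusted limma p under 0.05 (24.9% of all genes). Col8a2, a short-chain network collagen, was at -0.39 (adjusted p 0.207), with control 4 at 4.91 and the other controls at 3.73 to 4.11. Col23a1, a membrane collagen, was at 0.34 (adjusted p 0.155). Col7a1, Col8a1, Col10a1, Col13a1, Col17a1, Col25a1 and Col26a1 had differences from -0.23 to 0.26. In all, 6 of the 9 genes lie in the dimmest band.

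**Figure D4:**
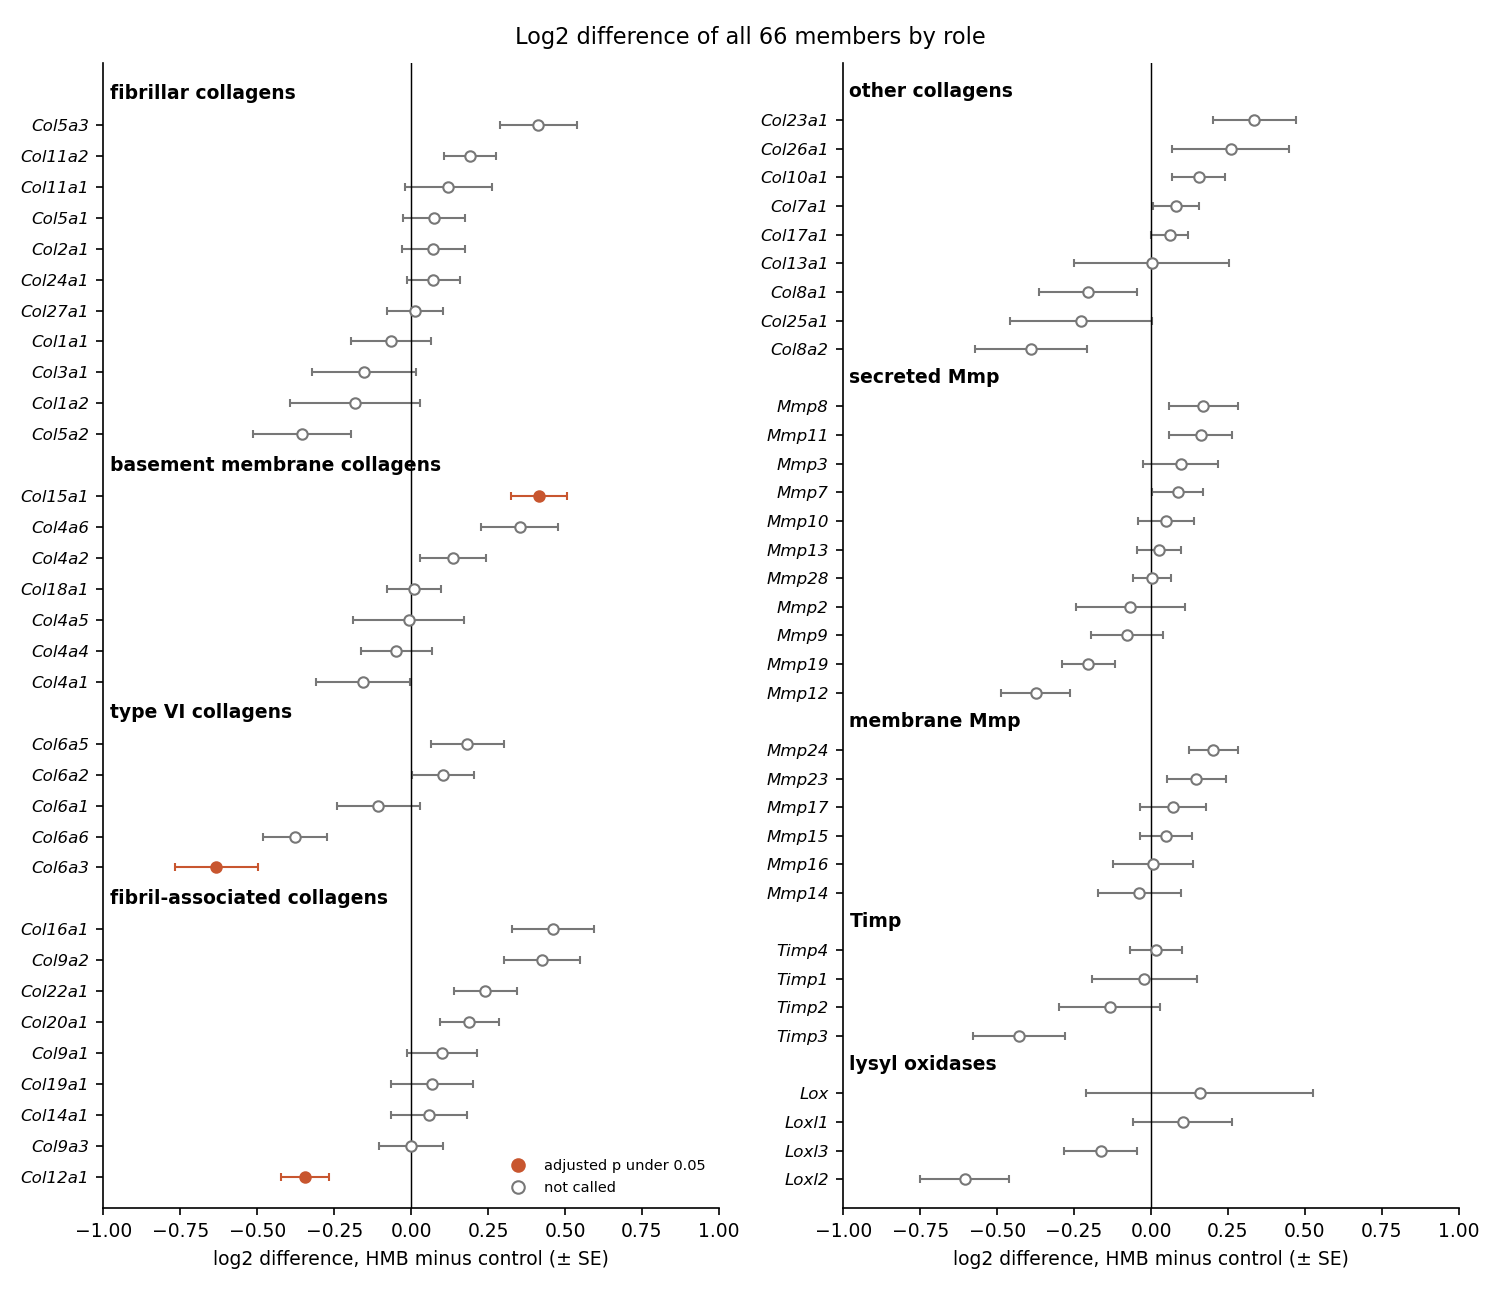
Log2 difference, HMB minus control, of each of the 66 genes (points) with its SE (bars), grouped by role. Filled marks are Col15a1, Col6a3 and Col12a1, the 3 genes past an adjusted p of 0.05.

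No Mmp gene passed (1.72% of all genes did), and 3 of 17 had an unadjusted limma p under 0.05 (24.9% of all genes). Medians were 0.02 over the 11 secreted enzymes and 0.06 over the 6 anchored to the membrane. Mmp2 and Mmp9 are the gelatinases, which cut denatured collagen and type IV collagen. Mmp2 read 5.52, 5.92, 5.33, 5.68 and 5.26 in controls and 5.42, 5.15, 5.17, 5.57 and 6.07 in HMB, a difference of -0.07 ± 0.18 (adjusted p 0.835), while its dimmer probe set gave 0.36 (0.181 adjusted over all probe sets). Mmp9 read 2.72, 2.77, 2.72, 2.80 and 3.22 in controls and 2.70, 2.52, 2.73, 2.91 and 2.99 in HMB, a difference of -0.08 ± 0.12 (adjusted p 0.698). Both overlapped, and control 5 alone stood out for Mmp9. Mmp12, the macrophage elastase, read 4.27, 4.44, 3.98, 4.07 and 4.45 in controls and 3.93, 3.57, 3.91, 3.98 and 3.95 in HMB. Its highest HMB value met its lowest control to 2 decimals, and the difference was -0.38 ± 0.11 (adjusted p 0.0874). Mmp19 read 5.08, 5.35, 5.11, 5.23 and 4.88 in controls and 4.94, 4.88, 4.97, 4.88 and 4.95 in HMB, a difference of -0.20 ± 0.09 (adjusted p 0.170). For Mmp19 the other 4 controls were above all HMB values, and control 5 lay just below them. The other secreted enzymes, Mmp3, Mmp7, Mmp8, Mmp10, Mmp11, Mmp13 and Mmp28, had differences from 0.00 to 0.17, and all lie in the dimmest band.

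Mmp14, the membrane enzyme that activates the proenzyme of Mmp2, read 8.02, 8.46, 8.30, 8.11 and 8.45 in controls and 8.09, 8.10, 7.93, 8.44 and 8.59 in HMB. The groups overlapped at -0.04 ± 0.14 (adjusted p 0.881, 95% interval -0.33 to 0.26). Mmp15, a related membrane enzyme, read 6.69, 6.94, 6.79, 6.80 and 6.69 in controls and 6.91, 6.74, 7.04, 6.70 and 6.75 in HMB, a difference of 0.05 ± 0.09 (adjusted p 0.747). Mmp24 had the smallest adjusted p of this class, 0.147, at a difference of 0.20, and its other probe sets were at 0.12 and 0.45. Mmp16, Mmp17 and Mmp23 lay between 0.01 and 0.15.

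No Timp gene passed (1.72% of all genes did), and the median was -0.08. Of the 4, 1 had an unadjusted limma p under 0.05 (24.9% of all genes). Timp3, which binds to the matrix, read 6.35, 6.64, 6.59, 7.00 and 6.22 in controls and 6.10, 6.49, 6.05, 5.84 and 6.16 in HMB. All HMB livers but HMB 2 were below the lowest control, and the difference was -0.43 ± 0.15 (adjusted p 0.118). Of its other probe sets, the brightest gave -0.57 and the others 0.00 and -0.16. Timp1, a soluble inhibitor that is raised in fibrotic liver, read 5.46, 5.20, 5.58, 5.99 and 5.14 in controls and 5.44, 5.37, 5.37, 5.18 and 5.92 in HMB. It overlapped in full at -0.02 ± 0.17 (adjusted p 0.949, 95% interval -0.39 to 0.35). Timp2, which also takes part in the activation of Mmp2, read 7.01, 7.26, 7.03, 7.64 and 6.52 in controls and 7.00, 6.97, 7.01, 6.76 and 7.06 in HMB, a difference of -0.13 ± 0.16 (adjusted p 0.625). The controls spanned more than the HMB livers, and a dim Timp2 probe set of mean 3.43 was at 0.38. Timp4 read 4.24, 4.10, 3.96, 4.14 and 4.25 in controls and 3.93, 4.23, 4.27, 4.17 and 4.16 in HMB, at 0.02 ± 0.08 (adjusted p 0.917).

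No lysyl oxidase passed (1.72% of all genes did), and the median was -0.03. Of the 4, 1 had an unadjusted limma p under 0.05 (24.9% of all genes). Loxl2, which cross-links type IV and fibrillar collagen, read 5.06, 5.72, 5.20, 5.28 and 4.78 in controls and 4.75, 4.45, 4.50, 4.59 and 4.72 in HMB. The groups did not overlap, although HMB 1 lay just under control 5, and the difference was -0.60 ± 0.14 (adjusted p 0.0583). It passed under 3 of 24 alternatives, among them the scaling of all arrays to the same median (-0.64, adjusted p 0.0462), and a dim probe set of the gene was at 0.03. Lox, the founding member, read 8.22, 8.65, 8.50, 8.37 and 9.40 in controls and 8.69, 8.67, 7.42, 9.69 and 9.46 in HMB. It varied more from animal to animal than any other of the 66, with a within-group SD of 0.71, above 99.6% of all genes. Its difference of 0.16 ± 0.37 (adjusted p 0.813, 95% interval -0.65 to 0.96) was smaller than that spread, and its other probe set gave 0.19. Loxl1 read 4.93, 4.75, 5.20, 5.61 and 5.19 in controls and 5.16, 5.11, 5.04, 5.20 and 5.68 in HMB, at 0.10 ± 0.16 (adjusted p 0.712). Loxl3 read 3.84, 3.46, 3.62, 4.04 and 3.54 in controls and 3.37, 3.64, 3.51, 3.76 and 3.39 in HMB, at -0.16 ± 0.12 (adjusted p 0.400). Both overlapped.

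**Figure D5:**
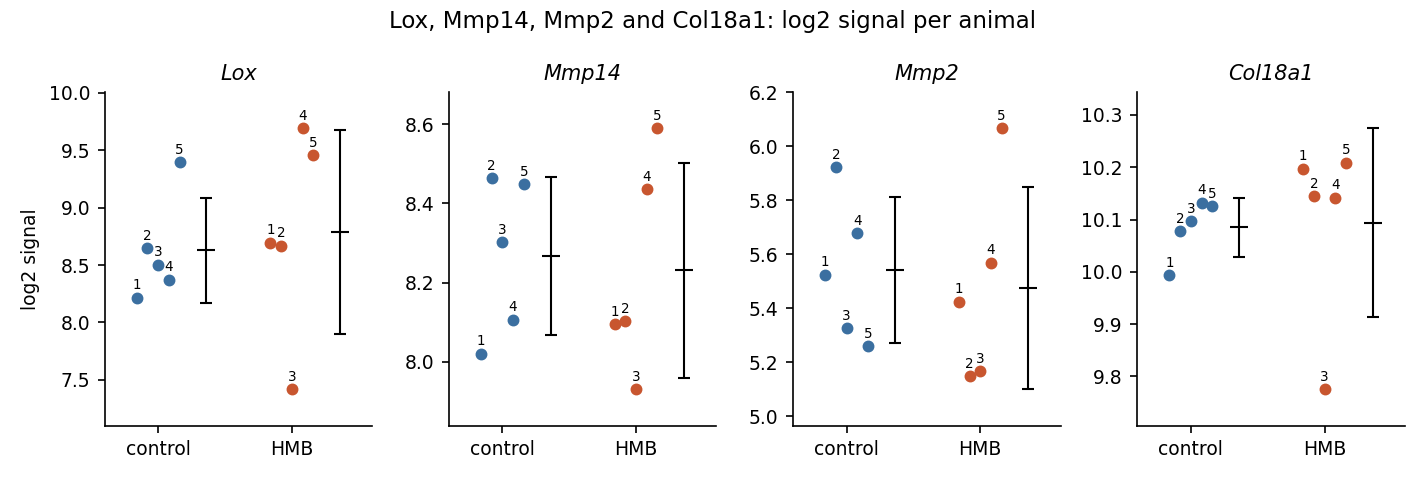
Log2 signal (vertical) of Lox, Mmp14, Mmp2 and Col18a1 in each of the 5 control and 5 HMB livers, with mean and SD. Lox spans 7.42 to 9.69 within the HMB group, and in Col18a1 HMB 3 lies apart at 9.78.

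Within a group, the brighter matrix genes often had the same highest and lowest animals. Of the 15 members with a mean signal above 5.92, control 4 was the highest control in 10 (66.7%) and control 5 the lowest in 10 (66.7%). Over all genes this bright, the shares were 20.3% and 20.2%. Among HMB livers, HMB 5 was highest in 9 of 15 (60.0%, against 14.8% of all) and HMB 4 lowest in 8 (53.3%, against 21.0%). Col1a2, Col3a1, Col5a2, Col4a1, Col6a1, Col14a1, Col18a1 and Timp2 were highest in both control 4 and HMB 5. With group means removed, Col3a1 and its neighbour in the genome Col5a2 correlated at Pearson's r of 0.841 (permutation p 0.00166, adjusted 0.00996 over 6 pairs) and Spearman's rho of 0.745 (permutation p 0.0181, adjusted 0.109), over 10 animals. Without the 2 animals farthest from the median of Col3a1, r was 0.653 over 8. The other pairs were Col1a1 with Col1a2 (r 0.375), Col3a1 (0.388) and Acta2 (0.384), and Mmp9 with S100a9 (0.108), all with an adjusted permutation p of 0.423 or more for r. For Mmp9 with S100a9, r was 0.632 over the 8 animals left without the 2 farthest from the median of Mmp9.

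Several lists of marker and matrix genes had their extremes in the same animals. The mean log2 signal of 9 of 12 listed endothelial markers was highest in control 4 among controls (8.01) and lowest in control 5 (6.85), and it was highest in HMB 5 (7.49) and lowest in HMB 4 (7.03) among HMB livers. The 11 of 13 stellate markers measured gave 6.41 in control 4, 5.96 in control 5 and 6.34 in HMB 5, the extremes of their groups, and ranged from 6.05 in HMB 3 to that value in HMB. Among controls, the macrophage and the myofibroblast lists, collagen folding genes and other matrix proteins were also highest in control 4 and lowest in control 5. The part of these cell types in the matrix results was not tested. Between groups the ranges overlapped for each of the 9 marker lists, and no listed marker passed (0 to 3 a list had an unadjusted limma p under 0.05). Over all genes 1.72% passed, and 24.9% had an unadjusted limma p under 0.05. The ranges in controls and HMB were 5.96 to 6.41 and 6.05 to 6.34 for stellate cells, and 6.85 to 8.01 and 7.03 to 7.49 for endothelium. Kupffer cell and macrophage markers (7 of 10) gave 6.34 to 7.95 and 6.96 to 7.69, and neutrophil markers (6 of 10) 3.06 to 3.35 and 3.02 to 3.41.

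Myofibroblast and smooth muscle markers (9 of 9) gave 3.95 to 4.35 in controls and 4.10 to 4.26 in HMB, with a median difference of 0.10 and 3 at an unadjusted limma p under 0.05. Myh11, the smooth muscle myosin, was at 0.44 (adjusted p 0.0927) and Synpo2 at 0.39 (adjusted p 0.118). Of the 9 markers, 5 were above 0 and 4 below, with Tagln the lowest at -0.39 (adjusted p 0.252). Portal fibroblast markers (7 of 8) gave 4.41 to 4.74 and 4.64 to 4.76, with a median of 0.07 and 3 at an unadjusted limma p under 0.05. Gli1 was at 0.38 (adjusted p 0.0834) and Dpt at 0.52 (adjusted p 0.110). Entpd2, also under that unadjusted p, went the other way at -0.24 (adjusted p 0.132). Of the 7 markers, 6 were above 0 and 1 below. The cholangiocyte list (5 of 8) had its smallest p for Krt7 (difference 0.17) and Cftr (difference 0.11), with ranges of 4.30 to 4.80 and 4.38 to 4.76. Mesothelial markers (6 of 7) gave 4.45 to 4.84 and 4.45 to 4.77, with Gpm6a at 0.26 and Upk1b at -0.29. Elsewhere the genes of smallest p, with their differences in brackets, were Hgf (0.21) and Ngfr (-0.13) among stellate markers. In endothelium they were Stab1 (-0.26) and Tek (-0.21), in macrophages Adgre1 (0.15) and Cd163 (0.11), and in neutrophils S100a9 (-0.23) and Csf3r (0.11). Hepatocyte markers (11 of 12), which define the labelled tissue, had mean signals of 11.6 to 14.6, with group ranges of 13.41 to 13.52 and 13.37 to 13.45, and Apoa1 (-0.25) and Hnf4a (-0.20) had the smallest p. The files hold no detection calls, so no marker can be called absent.

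The wider matrix pathway gave no call either: 0 of 104 measured genes passed (limma, adjusted p under 0.05), against 1.72% of all genes. At an unadjusted limma p under 0.05 there were 17 of the 104, against 24.9% of all genes. The median difference was -0.07. Of the 25 genes of collagen folding and processing, 19 were measured, with a median of -0.07. Bmp1, which trims the ends of procollagen, was at 0.22 (adjusted p 0.155), and P4ha2, a prolyl hydroxylase subunit, at -0.22 (adjusted p 0.224). In TGF-beta and PDGF signalling 20 of 24 were measured, with a median of -0.12. Skil, an inhibitor of SMAD signalling, was at -0.62 (adjusted p 0.0514), and Ltbp3, which binds latent TGF-beta, at 0.35 (adjusted p 0.0679). For both the groups overlapped.

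Other matrix proteins, 36 of 37, had a median of -0.10. Mfap4, a microfibril protein, was lower in every HMB liver than in any control at -0.44 (adjusted p 0.0592), and Eln, elastin, was at 0.44 (adjusted p 0.103). Of the 36, 21 were below 0 and 15 above. The largest difference in size was that of Lum, -1.27 (adjusted p 0.121), with HMB values from 2.60 to 5.77. Groups without overlap were seen for 1 of the 36, Mfap4, against 6.12% of all genes. Other matrix proteases and inhibitors, 24 of 25, had a median of 0.01, with Adam17, a sheddase, at -0.29 (adjusted p 0.111) and A2m, a broad protease inhibitor, at -0.69 (adjusted p 0.196). The groups did not overlap for 1 of the 24, Plg, at -0.09 (adjusted p 0.327). Of 10 collagen receptors 5 were measured, with a median of 0.06. Itga1, the integrin chain that binds collagen I and IV, was lower in every HMB liver than in any control at -1.08 ± 0.29 (adjusted p 0.0673), and Ddr1, a collagen receptor kinase, was at 0.16 (adjusted p 0.194). Itga1 was the 1 receptor of the 5 without overlap.

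Of the 23 members with several probe sets, 10 had 1 sign in all of them and 13 did not. For Col6a3, Col12a1, Col15a1 and Loxl2 alike, the dimmer probe sets did not share the difference of the gene's brightest one. For Col15a1 even the brightest lies in the dimmest band. Which transcripts each detects was not tested. With all 31042 probe sets as features, 2 of the 96 passed, Col6a3 (adjusted p 0.0420) and Col15a1 (0.0488).

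Measures of RNA handling differed in part between the groups. The signal of added poly-A transcripts less that of the hybridisation controls was -2.19 to -1.90 in controls and -1.96 to -1.47 in HMB. The GAPDH 3′ signal less its 5′ signal was 1.90 to 2.09 in HMB 3 to 5, above all controls (1.38 to 1.77), and 1.31 and 1.38 in HMB 1 and 2, below them. With either as a covariate no member was called, while Col6a3 stayed at -0.63 (adjusted p 0.243) and -0.64 (adjusted p 0.0703). Their part in the differences was not tested beyond these fits. Without HMB 3 to 5 no member was called, and without HMB 1 and 2 the calls were Col15a1, Col4a6 and Col9a2, with Col6a3 at -0.57 (adjusted p 0.0702).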

How the data were processed

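Liver RNA of 5 control and 5 HMB rats was measured on 10 arrays. The authors deposited log2 signals of 31099 probe sets, made with RMA per the submitters' processing notes, with no version. They were used as deposited. Without the 57 Affymetrix controls 31042 were tested, and 20826 had 1 gene symbol, 20764 of them updated to RefSeq names of GRCr8. Each of 14217 genes was given by its brightest probe set. Groups follow the titles, and replicate numbers follow deposition order. Array pairs correlated at 0.987 to 0.995 over 45 pairs, and 0 pairs were identical. The labels give no litter or cage for an animal, so p-values measure the spread between these 10 animals.

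Tests used limma 3.58.1 in R 4.3.3 (lmFit, eBayes, HMB minus control, 8 residual and 4.04 prior degrees of freedom). Adjustment was by Benjamini-Hochberg over all genes, with a threshold of 0.05. The script was tested on simulated data with 200 of 14217 genes changed. It recovered 52.5% of log2 changes of 0.5 and 96.5% of changes of 1, with 2 and 12 false calls. Changes of 0.5 or less can thus go uncalled. The simulation gave each gene independent noise and no difference shared across genes, so its shares need not hold for these arrays. Larger observed differences also went uncalled, as for Itga1 (-1.08, adjusted p 0.0673 by limma). No low-signal filter was applied. Intervals are 95% and unadjusted. Correlations used a permutation test with 100000 draws. The number of arrays limits the precision. Alternatives changed normalization, low-signal filters (25% and 50%), variance prior, array weights, covariates, probe set choice, the group of HMB 1 and the animals included.

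The members and lists were chosen with earlier results of these data known. Full values are given for members past the threshold, the 10 of lowest p and a fixed set of common matrix genes, of which Loxl4 was not analysed here, and from each list the 2 genes with the smallest p. Col4a6, Col8a2, Col23a1, Mmp24, Entpd2, Tagln, Lum and Plg were named after their values were seen.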

Additional observations from a re-analysis of the deposited data

Results flagged for a closer look

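Among the members given in full, 64 groups of 5 animals were looked at for a single animal apart from the others by Dixon's 95% critical value (0.71), which chance passes in about 1 in 20 groups, and 5 passed. Mmp12 was 3.57 in HMB 2, against 3.91 to 3.98 in the other HMB livers. Col1a2 was 7.40 in HMB 5, against 6.61 to 6.82. Col18a1 was 9.78 in HMB 3, against 10.14 to 10.21. Mmp9 was 3.22 in control 5, against 2.72 to 2.80 in the other controls. Loxl1 was 5.68 in HMB 5, against 5.04 to 5.20.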

How the results depend on the processing

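None of 25 alternatives turned the sign of Col6a3, none of the 23 that kept Col15a1 turned its sign, and for Col12a1 the largest-variance probe set gave 0.21. For Col6a3 and Col15a1 many of these could not do so. Leaving out animals cannot turn the sign where groups do not overlap. The threshold, the low-signal filters, the variance prior and the test over all probe sets leave a difference as it is. The count of members called was 3. It was 1 with cyclic loess, quantile normalization, the dimmest 50% of genes left out, a trended robust prior, or the 1-digit reading. It was 0 at an adjusted p of 0.01, with HMB 1 as a control, with the poly-A or the GAPDH covariate, or without HMB 3 to 5, and leaving out 1 animal at a time gave 0 to 6. Omitting control 1 gave 6, omitting HMB 1 gave 2, and omitting any of the other 8 animals gave 0. The count over all genes, 244 (108 higher, 136 lower), was 82 with cyclic loess, 62 with quantile normalization, 156 without the dimmest 50%, 659 with array weights, 30 with HMB 1 as a control, 55 with the GAPDH covariate and 704 without HMB 1 and 2. It was 0 at an adjusted p of 0.01 (3538 at an unadjusted limma p under 0.05), with the poly-A covariate (1914) and without HMB 3 to 5 (1612), and 0 to 1014 with 1 animal left out. Scaling to the same median gave 86 higher and 234 lower, and cyclic loess gave 45 and 37, quantile normalization 39 and 23. Without the dimmest 50% the split was 23 and 133. Pathway genes called, 0 in the main analysis, were 2 with the same median, 1 without the dimmest 25% or 50%, with the trended prior, with the largest-variance probe set or over all probe sets, 3 with array weights, 2 without HMB 1 and 2, and 0 to 6 with 1 animal left out. The members' median, 0.05, was -0.11 among the 15 left without the dimmest 50%, where the median of all genes left was -0.09. Of 29 uncalled members given in full, 13 kept their sign in all alternatives and 16 did not. No paired analysis was possible because the replicate numbers pair no animals.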
